A study of Mus musculus with 2 samples.

Results

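Complement is a set of plasma and cell surface proteins that tag microbes and dying cells for uptake and call leukocytes to sites of infection. Most of its plasma proteins come from the liver, but macrophages are a main source of C1q, and myeloid cells also make C3, factor B and properdin and carry the receptors for the small fragments C3a and C5a. A set of 8 genes of this system were followed in single cell RNA sequencing (scRNAseq) of mice with either the wild type form of *Ptpn22* (PEP-WT) or its pro autoimmune allele (PEP-619WW). *C1qa*, *C1qb* and *C1qc* encode the 3 chains of C1q, the recognition protein of the classical pathway. *C3* encodes the central component on which all pathways meet, *Cfb* encodes factor B, the protease of the alternative pathway, and *Cfp* encodes properdin, which stabilizes the enzyme that factor B forms with C3b. *C3ar1* and *C5ar1* encode the receptors for C3a and C5a. These 8 members were taken by name from the 32285 genes counted in each library, and all 8 were found.

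By the study's description both genotypes were C57BL/6 mice, PEP-619WW having been made with CRISPR/Cas9. In it all animals sequenced were infected with LCMV-cl13, a persistent strain of lymphocytic choriomeningitis virus, and taken 8 days later. It names no library from a mock infected animal. In the study's description a library comes from the live CD45+ fraction of a spleen cell pool, to which several animals alike in age and sex had contributed, and is thus the mean of its pool. Whether that description, of infection, day and tissue alike, holds for both runs could not be settled. Each genotype had a library in run 1 and another in run 2. No source used here says how the runs relate, so they were kept apart and not used as replicates. With 1 library per genotype and run there was no replicate error and no test, and intervals in the text are exact 95% intervals that cover counting error only.

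The sources disagree on what was sequenced. The sample labels name liver, the human T cell line Jurkat and CD45+ cells from a tumor, whereas the study and the protocols that accompany those labels speak of mouse splenocytes. The libraries held 8576 to 14821 barcodes with 55504449 to 77916082 UMIs (unique molecular identifiers, each standing for a captured molecule). The barcode numbers named in the study's methods are those of run 2. In the *Lyz2* gate described next, the 3 hepatocyte genes *Alb*, *Apoa1* and *Ttr* summed to 0 UMIs in 3 libraries and to 2 UMIs in PEP-WT of run 2. At least 3 of 5 melanocyte genes were found in 249 PEP-WT and 25 PEP-619WW barcodes of run 2 and in 0 barcodes of run 1. Which of the named sources these barcodes came from was not tested. *Ptpn22* itself had 76.7 CPM (UMIs per 1000000 UMIs) in PEP-WT and 94.7 in PEP-619WW of run 1, and 19.4 and 67.2 in run 2, and counts of its 3′ end do not show which allele a cell carried. Pairs of libraries shared 19 to 49 barcode sequences (0.222 to 0.455% of the smaller library).

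Barcodes were grouped by UMIs of marker genes. The *Lyz2* gate, meant for monocytes or macrophages, required at least 5 UMIs of *Lyz2*. The neutrophil gate required at least 20 UMIs of *S100a8* and *S100a9* together, the conventional dendritic cell (cDC) gate a UMI of *Flt3* and 10 of *H2-Aa*, and the B gate a UMI each of *Cd79a* and *Ms4a1*. In run 1, PEP-WT had 1600 and PEP-619WW 1236 barcodes in the *Lyz2* gate, with 806 and 864 in the neutrophil gate, 274 and 176 in the cDC gate, and 6937 and 3144 in the B gate. In run 2 these numbers were 6488 and 4919, 590 and 1071, 48 and 464, and 2 and 503, so that the B gate of run 2 allowed no comparison. The 7 markers of monocytes and macrophages summed in the *Lyz2* gate to 3647 and 3191 CPM in run 1 and to 1977 and 3133 in run 2, above the 1906 and 2109, and 734 and 1127, of T barcodes (with *Cd3e* and *Cd3d*). *Csf1r*, their growth factor receptor, stood at 174 and 165 in the *Lyz2* gate of run 1 and at 199 and 303 in that of run 2.

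The gates were not pure. *Lyz2* is also made by neutrophils, and 34.6% (PEP-WT) and 45.5% (PEP-619WW) of *Lyz2* gate barcodes of run 1 also passed the neutrophil gate, against 2.62% and 6.79% in run 2. Neutrophil markers summed to 3907 and 7317 CPM in the *Lyz2* gate of run 1, above the 3647 and 3191 of monocyte and macrophage markers. In its barcodes outside the neutrophil gate these sums were 72.3 and 79.5, and 3964 and 3351. In run 1 the name *Lyz2* gate thus stands for the rule on *Lyz2*, not for a cell type. B cell markers summed to 1088 and 1589 CPM and plasma cell markers to 3520 and 4469 in the *Lyz2* gate of run 1, against 57.5 and 111, and 124 and 227, in run 2, and their part in the results was not tested. The cDC gate of run 1 went against its name, with 763 and 504 CPM of cDC markers beside 2606 and 4234 of B cell markers, and 179 of its 274 and 110 of its 176 barcodes also passed the B gate. In run 2 its cDC markers summed to 1570 and 1726 and its B cell markers to 35.8 and 153. Its 4 erythroid markers summed to 1519 and 113 in run 1 and to 4713 and 1.04 in run 2. Those of the *Lyz2* gate summed to 1629 and 744, and to 340 and 1.52, and their part in the results was not tested. The name cDC gate thus stands for the rule on *Flt3* and *H2-Aa*, not for a cell type. The runs differed in the macrophages they held. The monocyte gene *Ly6c2* reached 3 UMIs in 83.3% and 79.2% of *Lyz2* gate barcodes of run 1, but in 1.77% (PEP-WT) and 24.1% (PEP-619WW) of those of run 2. In T barcodes it did so in 58.5% and 71.1% in run 1 and in 10.9% and 22.2% in run 2. B gate barcodes of run 1 did so in 28.5% and 33.1%, so that this cut does not single out monocytes. *Ly6c2* is also among the monocyte and macrophage markers summed above. *Mrc1*, the mannose receptor of tissue macrophages, was found in 4.56% and 6.80% of *Lyz2* gate barcodes of run 1 and in 87.8% and 63.9% of those of run 2. *Vcam1* was present in 16.2% and 16.1% of *Lyz2* gate barcodes in run 1, and in 35.0% of PEP-WT against 2.48% of PEP-619WW barcodes in run 2. The genotypes of run 2 thus differed in these macrophage markers within the gate, and the part of this in the values that follow was not tested except where subsets are given.

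The genes of the 3 C1q chains lie side by side on chromosome 4 of the mouse genome (GRCm38, minus strand). *C1qb* spans chr4:136880129-136886187, *C1qc* chr4:136889804-136893065 and *C1qa* chr4:136895917-136898803. The other members are scattered: *C3* at chr17:57203970-57228136, *Cfb* at chr17:34856374-34862518, *Cfp* at chrX:20925454-20931555, *C3ar1* at chr6:122847138-122856161 and *C5ar1* at chr7:16246743-16259540. The 250 bases before the start sites of *C1qb* and *C1qc* are shown because the chains moved together in these data, beside those of *C3*, which did not move with them. The sequences are from RefSeq (GRCm38.p6), read 5′ to 3′ on the strand of the gene, with matches to the motifs named below in capitals. *C1qb* is chr4:136886201-136886450, *C1qc* chr4:136892915-136893164 and *C3* chr17:57228137-57228386.
C1qb: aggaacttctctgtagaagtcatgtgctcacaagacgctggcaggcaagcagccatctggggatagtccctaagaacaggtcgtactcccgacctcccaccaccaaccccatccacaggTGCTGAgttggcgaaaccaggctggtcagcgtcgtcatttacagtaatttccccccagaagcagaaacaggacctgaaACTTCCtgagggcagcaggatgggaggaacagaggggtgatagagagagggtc
C1qc: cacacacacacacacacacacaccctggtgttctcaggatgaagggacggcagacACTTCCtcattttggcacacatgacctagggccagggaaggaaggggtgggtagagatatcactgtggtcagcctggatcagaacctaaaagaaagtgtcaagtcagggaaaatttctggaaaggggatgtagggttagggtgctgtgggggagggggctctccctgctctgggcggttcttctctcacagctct
C3: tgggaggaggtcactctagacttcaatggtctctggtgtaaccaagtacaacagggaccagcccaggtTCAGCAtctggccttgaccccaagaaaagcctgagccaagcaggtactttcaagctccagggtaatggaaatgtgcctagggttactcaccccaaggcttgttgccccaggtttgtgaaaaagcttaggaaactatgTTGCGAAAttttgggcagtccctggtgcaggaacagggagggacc
Start sites here are those of the RefSeq table, which differ from the ends of the gene spans given above for *C1qb*, *C1qc*, *C3ar1* and *C5ar1*, and the windows of the last 3 reach into those spans. Motifs were searched on both strands of this window in the 6 members with a RefSeq entry. The PU.1 motif GGAAGT, which reads ACTTCC on the other strand, is that of the factor that specifies myeloid cells. It was found 53 bases before the start of *C1qb*, 195 bases before that of *C1qc* and at 2 places before the RefSeq start of *C5ar1*, both inside its gene span, and in 19.7% of 32851 promoters of the same length. The partial MARE site TGCTGA, read as TCAGCA on the other strand, was found in *C1qb*, *C3*, *C3ar1* and *C5ar1* and in 16.1% of all promoters. The C/EBP motif TTGCNNAA was found in *C3*, 45 bases before its start, and in 9.56% of all promoters. An interferon response element core, GAAANNGAA, was found in *C5ar1*, directly after a PU.1 match with no base shared, and in 7.13% of all promoters, and the GAS motif TTCNNNGAA, found in 7.02%, was in none of the 6. *Cfp* had no match to the 5 motifs. These are matches of letters, not evidence of binding.

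Levels are given as CPM, the UMIs of a gene per 1000000 UMIs of the gate, and they were compared between gates and libraries for each gene, not between genes, since counts of 3′ ends are not scaled to gene length. Of the 4 gates, C1q was highest in the *Lyz2* gate of each library, leaving aside the B gate with 2 barcodes. *C1qa* stood at 315 CPM (306 to 324) in PEP-WT and 421 (410 to 432) in PEP-619WW of run 1, and at 2376 (2364 to 2388) and 703 (694 to 712) in run 2. *C1qb* stood at 566 and 735 in run 1 and at 2823 and 1041 in run 2. *C1qc* stood at 266 and 400 in run 1 and at 1854 and 548 in run 2. The PEP-WT library of run 2 was thus the highest for each chain, and the lowest in the *Lyz2* gate was the PEP-WT library of run 1.

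Summed over the chains, C1q of run 1 was 1148 CPM in PEP-WT and 1556 in PEP-619WW in the *Lyz2* gate, 535 and 537 in the neutrophil gate, 458 and 320 in the cDC gate, and 235 and 269 in the B gate. T cells do not make C1q, and T barcodes, which had a UMI each of *Cd3e* and *Cd3d*, served as a background. They carried 374 and 297 in run 1 and 2267 and 622 in run 2, but 183 of 2174 and 114 of 1319 T barcodes of run 1 and 13 of 46 and 231 of 1136 of run 2 also passed the *Lyz2* gate. Without those, a setting added after the data had been seen, the background was 154 (148 to 160) in PEP-WT and 72.8 (68.2 to 77.7) in PEP-619WW of run 1, and 286 (228 to 354) and 49.99 (44.0 to 56.6) in run 2.

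Gates were set against this background with their *Lyz2* gate barcodes left out as well. The cDC gate of run 1 then held 136 and 23.5 CPM of C1q and its B gate 89.1 and 57.6, all below the T barcodes of the same library. The cDC gate of run 2 held 201 and 17.1, again below. The neutrophil gate held 350 and 169 in run 1 and 947 and 124 in run 2, and the B gate of PEP-619WW in run 2 held 95.9, all above the T barcodes. These comparisons depend on depth, since the median barcode had 1421.5 to 1965.5 UMIs in the neutrophil gate and 8117.5 to 13331 in the cDC gate, against 3355 to 6985 in T. Counted as UMIs per barcode, C1q of the neutrophil gate was 1.02 and 0.553 in run 1 and 1.60 and 0.274 in run 2, no higher than the 1.11 and 0.754, and 2.58 and 0.275, of T barcodes. The B gate of PEP-619WW in run 2 held 0.205 per barcode, below T, whereas the cDC gate of PEP-WT in run 1 held 2.06, above T. No gate outside the *Lyz2* gate thus exceeded T barcodes on both scales, and C1q there was not read as expression.

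**Figure D1:**
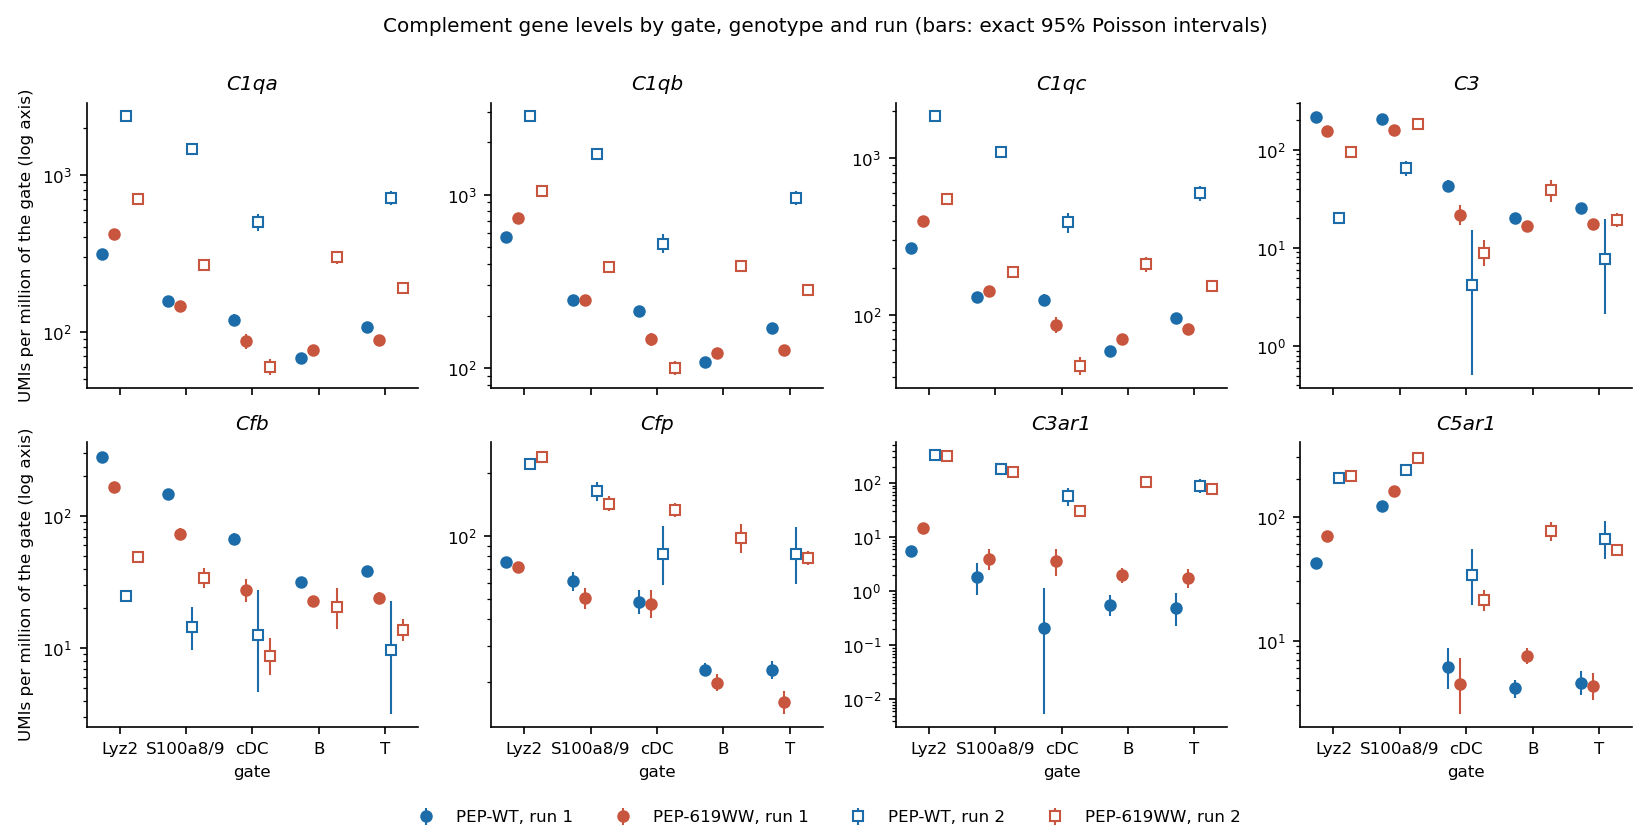
Level of each complement gene in CPM of the gate (log axis) in the *Lyz2*, neutrophil (S100a8/9), cDC and B gates and in T barcodes (those in the *Lyz2* gate included), by genotype (color) and run (filled circles run 1, open squares run 2), with exact 95% Poisson intervals. C1q of run 2 is higher in PEP-WT than in PEP-619WW wherever both are drawn, *C5ar1* is highest in the neutrophil gate of each library, and the B gate of PEP-WT in run 2, with 2 barcodes, is not drawn.

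The C1q transcripts lay mainly in few barcodes in run 1, whereas most PEP-WT barcodes of run 2 had at least 1000 CPM of C1q. In run 1, 50% of all *C1qa* UMIs of the *Lyz2* gate lay in 43 of 1600 PEP-WT barcodes and in 37 of 1236 PEP-619WW barcodes. In run 2 this share lay in 995 of 6488 and in 284 of 4919 barcodes. A C1q level of at least 1000 CPM was reached by 21.3% (19.3 to 23.3%) of barcodes of PEP-WT and by 24.3% (21.9 to 26.8%) of those of PEP-619WW in run 1. In run 2 these shares were 84.3% (83.4 to 85.1%) and 37.0% (35.7 to 38.4%). The shares of the genotypes lay close in run 1 and far apart in run 2. Their intervals count barcodes of 1 pooled library each and do not cover the spread between animals or libraries.

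**Figure D2:**
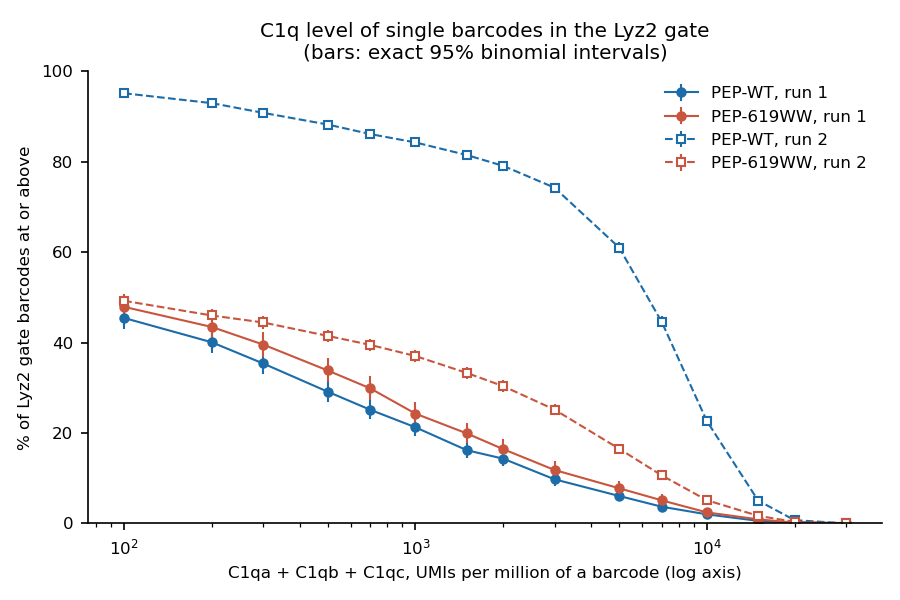
Share of *Lyz2* gate barcodes (percent) whose summed C1q level is at or above the value on the log axis (CPM of a barcode), by genotype (color) and run (solid lines run 1, dashed lines run 2), with exact 95% binomial intervals. The PEP-WT curve of run 2 lies above the other 3 up to 20000, with 84.3% of barcodes at 1000 or more, whereas the curves of run 1 lie close together.

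All 3 chains were detected in 23.3% and 23.5% of barcodes in the *Lyz2* gate of run 1 (PEP-WT and PEP-619WW), and in 80.6% and 32.6% in run 2. In barcodes with both *Adgre1* (F4/80) and *Vcam1*, markers shared by red pulp macrophages of the spleen, all 3 chains were detected in 85.9% and 80.4% in run 1 and in 97.9% and 89.7% in run 2. *Mrc1* was found in 26.0% and 25.2% of these barcodes in run 1 and in 97.9% and 90.7% in run 2. They are thus named by their markers, not as a cell type. The share of C1q UMIs that came from *C1qb* in the *Lyz2* gate was 49.3% and 47.2% in run 1 and 40.03% and 45.4% in run 2. Thinned to 1000 UMIs per barcode, which removes differences in depth, *C1qa* was detected in 13.4% (PEP-WT) and 13.7% (PEP-619WW) of *Lyz2* gate barcodes in run 1 (33.2% and 32.2% before thinning). In run 2 it was detected in 71.6% and 25.4% (87.4% and 37.2% before thinning). T barcodes outside the *Lyz2* gate, thinned in the same way, had it in 2.13% and 1.76% in run 1 and in 15.2% and 0.792% in run 2, the third value resting on 33 barcodes. Median depths in the *Lyz2* gate were 6282.5 and 6374.5 UMIs in run 1 and 7522.5 and 5919 in run 2, and in these T barcodes 4641 and 6985, and 6348 and 3355.

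To ask whether the *Ptpn22* allele went with a different level of these genes, PEP-619WW was set over PEP-WT within each gate and run. A gene was called higher or lower when it differed at least 1.5-fold and had at least 100 UMIs over both genotypes. In the *Lyz2* gate of run 1 all 8 members reached this number, 3 were called higher (*C1qc*, *C3ar1* and *C5ar1*), 1 lower (*Cfb*) and 4 neither. Of 9924 genes tested in that gate 2.73% were called higher and 3.88% lower. Again all 8 were tested in the *Lyz2* gate of run 2, with 2 called higher (*C3* and *Cfb*), 3 lower (*C1qa*, *C1qb* and *C1qc*) and 3 neither, where 22.4% of 11451 genes were called higher and 14% lower. The median log2 ratio of the members was 0.40 in run 1 and -0.01 in run 2, beside -0.07 and 0.11 for all tested genes. In the other gates the median of all genes was shifted by -0.11 (neutrophil) and -0.07 (cDC) in run 1 and by 0.25 and 0.28 in run 2. Log2 ratios in the text are not corrected for these shifts.

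**Figure D3:**
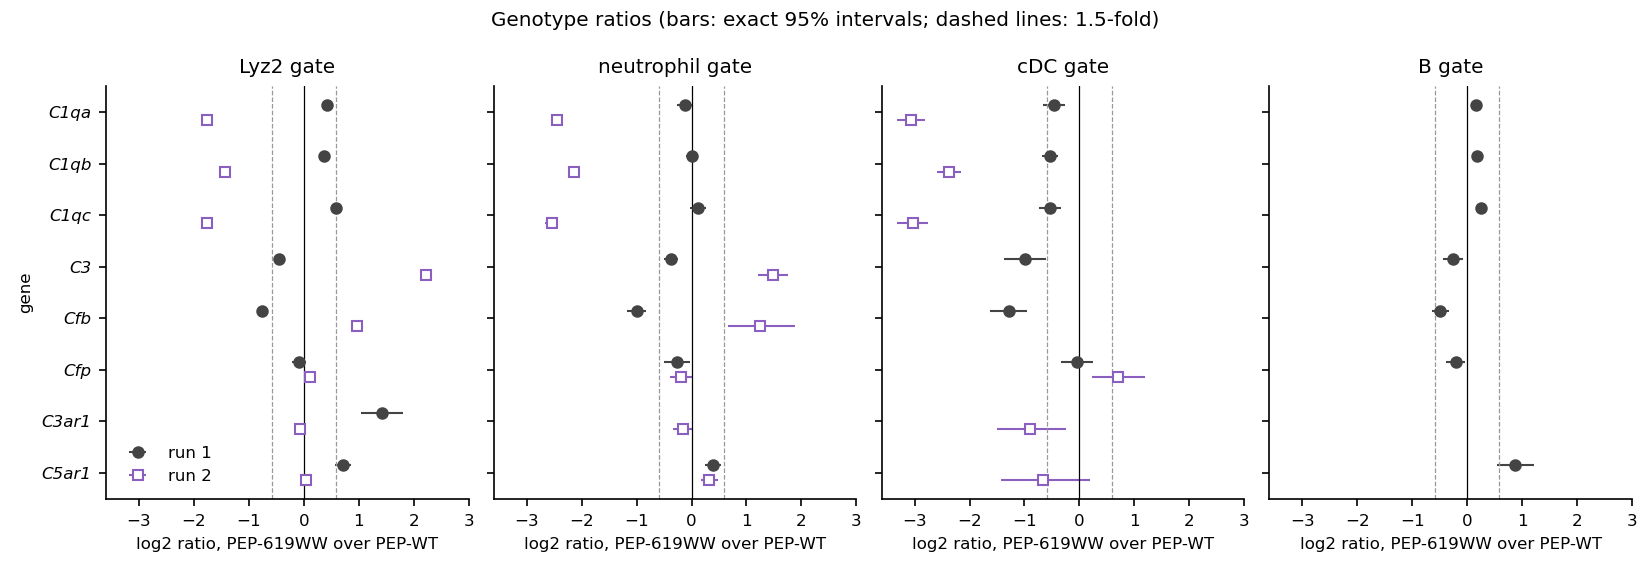
Log2 ratio of PEP-619WW over PEP-WT for each member with at least 100 UMIs in 4 gates, in run 1 (filled circles) and run 2 (open squares), with exact 95% intervals and dashed lines at 1.5-fold. The 3 C1q chains lie left of zero in run 2 and right of it in the *Lyz2* gate of run 1, and *Cfb* lies on opposite sides in the runs in the *Lyz2* and neutrophil gates.

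C1q differed between the genotypes in opposite directions in the runs. For PEP-619WW in the *Lyz2* gate of run 1, *C1qa* was 1.34-fold (1.29 to 1.39), *C1qb* 1.30-fold (1.26 to 1.34) and *C1qc* 1.5-fold (1.44 to 1.57) the PEP-WT level. In run 2 PEP-WT exceeded PEP-619WW 3.38-fold for *C1qa* (3.33 to 3.43), 2.71-fold for *C1qb* (2.68 to 2.74) and 3.38-fold for *C1qc* (3.33 to 3.44). The T background was higher in PEP-WT in both runs (154 and 72.8 in run 1, 286 and 49.99 in run 2), so that it moved with the difference in run 2 and against it in run 1, and its part was not tested. Outside the neutrophil gate, C1q of *Lyz2* gate barcodes stood at 1406 CPM in PEP-WT and 2040 in PEP-619WW in run 1, a log2 ratio of 0.54. Those *Lyz2* gate barcodes that passed the neutrophil gate held 564 and 618. Just outside the gate, at 4 UMIs of *Lyz2*, C1q stood at 1590 CPM in PEP-WT and 349 in PEP-619WW of run 1 and at 3741 and 1173 in run 2. Just inside, at 5 UMIs, it stood at 797 and 1266 in run 1 and at 3787 and 876 in run 2. In run 1 the 94 and 127 barcodes at 4 UMIs thus went the other way from the 62 and 102 at 5 UMIs. Those at 4 UMIs held 1120 and 208 UMIs of C1q, beside 17891 and 20531 in the whole *Lyz2* gate.

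The *Lyz2* gate outside the neutrophil gate was divided by *Ly6c2* (at least 3 UMIs) and *Adgre1* (at least 1 UMI), which mark inflammatory monocytes and macrophages. T barcodes passed the *Ly6c2* cut too, so that the subsets are named by the cuts, not by cell types. In run 1 C1q was 579 CPM in PEP-WT and 894 in PEP-619WW in *Ly6c2* high barcodes without *Adgre1* (608 and 324 barcodes). It was 2417 and 3110 in *Ly6c2* high barcodes with *Adgre1* (286 and 214). In *Ly6c2* low barcodes with *Adgre1*, of which there were 27 and 17, it was 5580 and 4472. PEP-619WW was thus higher in both *Ly6c2* high subsets of run 1 and lower in both *Ly6c2* low subsets, the one without *Adgre1* having 1422 and 1255. In run 2 C1q was lower in PEP-619WW in each of the 4 subsets, with 3546 against 1075 in *Ly6c2* high barcodes without *Adgre1*, 5569 against 2774 in those with it, 7762 against 3573 in *Ly6c2* low barcodes with *Adgre1* and 4405 against 1248 in those without. The PEP-WT library of run 2 had 40 and 69 barcodes in its *Ly6c2* high subsets.

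The difference of run 2 was not seen in barcodes with both *Adgre1* and *Vcam1*, taken from the whole library. There C1q stood at 8806 CPM in 1995 PEP-WT barcodes and at 9038 in 97 PEP-619WW barcodes, a ratio of 1.03 (1.00 to 1.05). In run 1 the same barcodes, 177 and 143, had 3538 and 3906, a ratio of 1.10 (1.08 to 1.13). Barcodes with *Adgre1* and *Folr2*, another tissue macrophage marker, numbered 2277 and 463 in run 2 and had C1q at 7758 and 5567, where *C1qc* was 1.53-fold higher in PEP-WT (1.49 to 1.57). They numbered 0 and 2 in run 1. Without barcodes that held a UMI of *Vcam1*, *Folr2* or *Mrc1*, a setting added after the data had been seen, the log2 ratio of C1q in the *Lyz2* gate was 0.54 in run 1 and -2.07 in run 2, beside 0.44 and -1.62 with them.

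**Figure D4:**
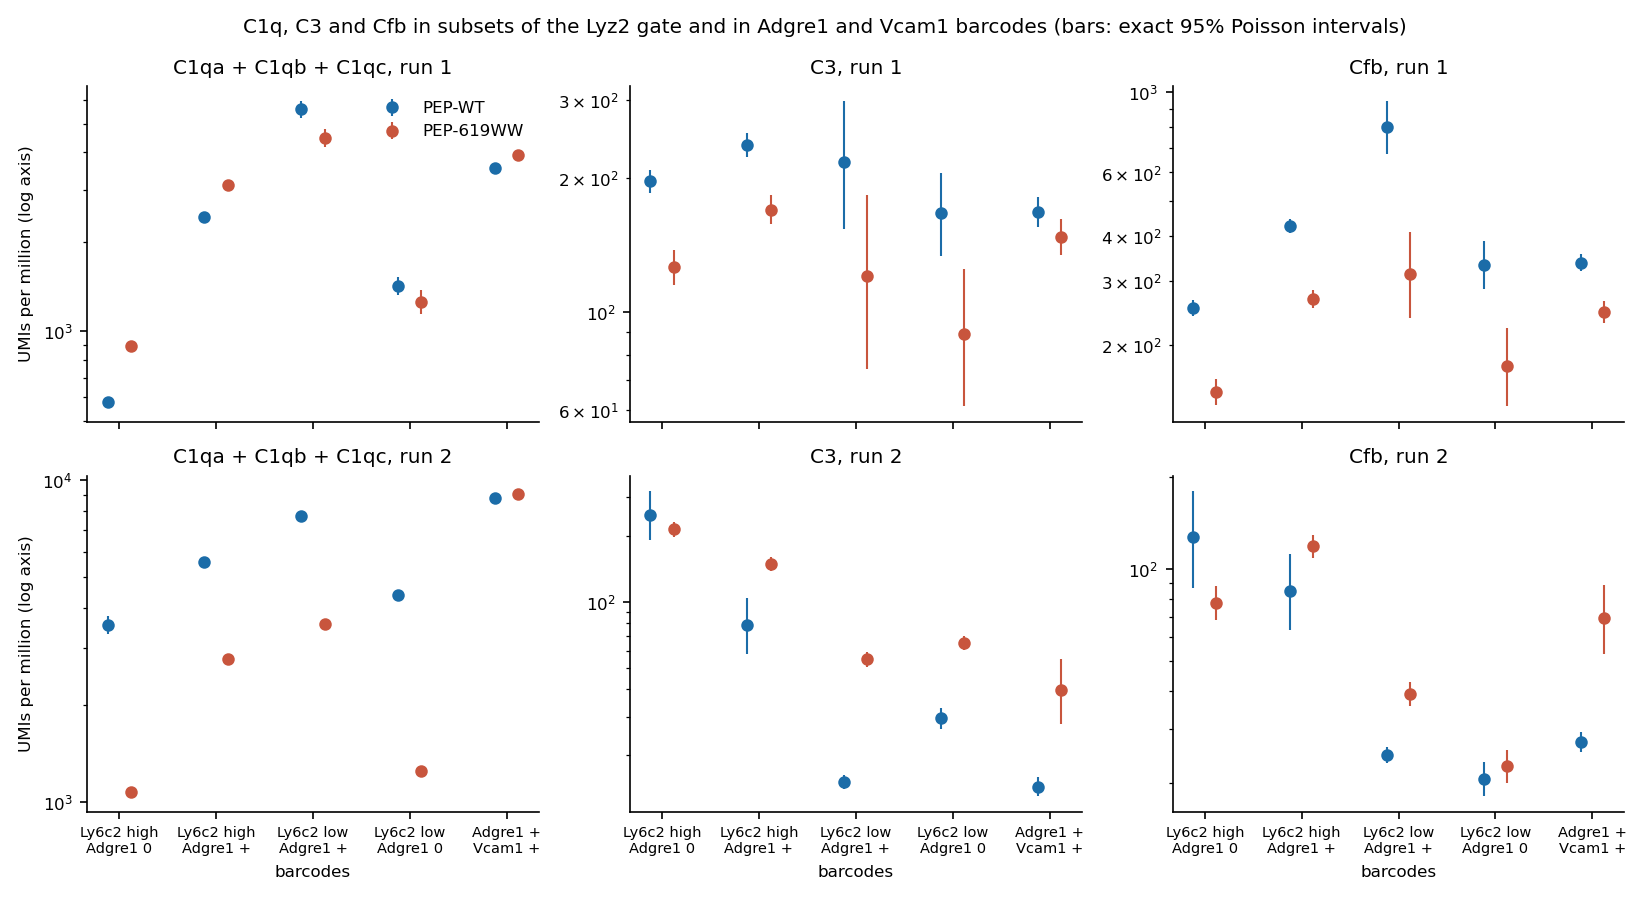
Summed C1q, *C3* and *Cfb* in CPM (log axes of different range) in 4 subsets of the *Lyz2* gate outside the neutrophil gate and in barcodes with *Adgre1* and *Vcam1*, for PEP-WT and PEP-619WW in run 1 (top) and run 2 (bottom), with exact 95% Poisson intervals. C1q of run 2 is lower in PEP-619WW in the 4 subsets but not in *Adgre1* and *Vcam1* barcodes, and *Cfb* of run 1 is lower in PEP-619WW in all 5.

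*C3* and *Cfb* also went in opposite directions in the runs. *C3* stood at 215 CPM (208 to 222) in PEP-WT and 157 (150 to 164) in PEP-619WW in the *Lyz2* gate of run 1, and at 19.998 (18.9 to 21.1) and 93.9 (90.7 to 97.2) in run 2. PEP-619WW was thus 1.37-fold lower (1.29 to 1.45) in run 1 and 4.70-fold higher (4.40 to 5.02) in run 2. The low library was PEP-WT of run 2, where *C3* was detected in 11.8% of *Lyz2* gate barcodes against 32.9% to 64.6% in the others. Within run 2 *C3* was nearer between the genotypes in *Ly6c2* high barcodes without *Adgre1*, at 250 in PEP-WT and 214 in PEP-619WW, and 3.62-fold higher in PEP-619WW (3.25 to 4.02) in *Ly6c2* low barcodes with *Adgre1*.

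*Cfb* stood at 282 CPM (274 to 290) in PEP-WT and 167 (160 to 174) in PEP-619WW in the *Lyz2* gate of run 1, 1.68-fold lower (1.60 to 1.77). It stood at 24.8 (23.6 to 26.1) and 48.9 (46.6 to 51.3) in run 2, 1.97-fold higher (1.84 to 2.11). In run 1 *Cfb* was lower in PEP-619WW in each of the 4 subsets and in *Adgre1* and *Vcam1* barcodes (338 and 247). In T barcodes outside the *Lyz2* gate of run 1 *Cfb* stood at 5.73 and 2.89, far under the *Lyz2* gate. Among the *Lyz2* gate barcodes outside the neutrophil gate, the 50% ranked higher by C1q had more *Cfb* than the 50% ranked lower in each library. In run 1 these levels were 410 against 238 in PEP-WT and 308 against 114 in PEP-619WW, and in run 2 they were 31.9 against 16.4 and 62.1 against 31.97. *C3* followed this order in PEP-619WW of run 1, at 183 against 109, but not in the other 3 libraries. It stood at 209.8 against 213 in PEP-WT of run 1, and in run 2 at 16.8 against 22.8 in PEP-WT and 64.9 against 115 in PEP-619WW.

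*Cfp* was close between the genotypes in the *Lyz2* gate of both runs. It stood at 74.98 CPM in PEP-WT and 70.9 in PEP-619WW in run 1, a ratio of 0.946 (0.867 to 1.03), and at 222 and 239 in run 2, a ratio of 1.08 (1.05 to 1.11). It was detected in 32.6% and 29.1% of these barcodes in run 1 and in 70.3% and 60.6% in run 2. The runs thus differed more than the genotypes.

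In the *Lyz2* gate both receptors differed by more between the runs than between the genotypes. *C3ar1* stood at 5.58 CPM in PEP-WT, from 87 UMIs, and 14.9 in PEP-619WW, from 197, in the *Lyz2* gate of run 1, a 2.68-fold difference (2.07 to 3.48). In run 2 it stood at 328 and 313. It was found in 3.69% and 7.69% of *Lyz2* gate barcodes of run 1 against 79.0% and 62.0% in run 2. The higher level of PEP-619WW in run 1 was seen in *Ly6c2* high barcodes with *Adgre1* (12.3 and 29.1) and in *Adgre1* and *Vcam1* barcodes (9.67 and 26.6). In T barcodes of run 1 outside the *Lyz2* gate *C3ar1* had 1 and 11 UMIs.

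*C5ar1*, which neutrophils carry in abundance, had its highest level in the neutrophil gate in each library. There it stood at 122 CPM in PEP-WT and 160 in PEP-619WW in run 1, and at 237 and 296 in run 2. Within the *Lyz2* gate it stood at 42.1 and 69.3 in run 1, 1.65-fold higher in PEP-619WW (1.49 to 1.82), and at 206 and 213 in run 2. The share of *Lyz2* gate barcodes that passed the neutrophil gate in run 1, higher in PEP-619WW, moved with this difference. Outside the neutrophil gate *C5ar1* was 14.1 and 26.3, 1.87-fold higher in PEP-619WW (1.52 to 2.31).

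In the neutrophil gate of run 1, 7 members had 100 UMIs, 0 were called higher and 1 lower (*Cfb*, 146 and 73.2 CPM), where 2.96% of 7678 genes were called higher and 7.7% lower. Nearly all of this *Cfb* came from barcodes that passed the *Lyz2* gate as well, with 797 of 808 UMIs in PEP-WT and 378 of 401 in PEP-619WW. In neutrophil gate barcodes outside the *Lyz2* gate *Cfb* stood at 14.96 and 23.3, from 11 and 23 UMIs. *C3* stood at 205 and 159 in this gate and was still present outside the *Lyz2* gate, at 88.4 and 61.8 against 4.06 and 3.53 in T barcodes outside that gate. In run 2 all 8 members were tested in the neutrophil gate, with *C3* and *Cfb* called higher and the 3 C1q chains lower, against 27.5% and 8.98% of 5901 genes. *C3* stood at 65.2 in PEP-WT and 182 in PEP-619WW, 2.80-fold higher (2.33 to 3.39), and outside the *Lyz2* gate at 110.05 and 186. Of the *Cfb* UMIs of this gate 26 of 30 and 127 of 133 lay in barcodes that also passed the *Lyz2* gate, and outside it *Cfb* stood at 5.64 and 3.69, from 4 and 6 UMIs, so that the call rested on those barcodes. The 6 neutrophil markers *Ly6g*, *Csf3r*, *Mmp8*, *Retnlg*, *Cxcr2* and *Camp* summed to 12012 and 19186 CPM in this gate in run 1 and to 2106 and 1759 in run 2, so that the gate of run 2 held fewer neutrophil transcripts. The 7 monocyte and macrophage markers summed to 1407 and 1973 in the gate of run 2, above the neutrophil markers in PEP-619WW. In run 2 the name neutrophil gate thus stands for the rule on *S100a8* and *S100a9*, not for a cell type.

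In the cDC gate of run 1, with its B cell markers, 6 members were tested, with 0 called higher and 2 lower, where 3.87% of 7024 genes were called higher and 5.38% lower. *C3* stood at 42.9 in PEP-WT and 21.7 in PEP-619WW, and *Cfb* at 67.2 and 27.6. Outside the *Lyz2* gate these levels were 3.8 and 2.06 for *C3* and 2.53 and 0.824 for *Cfb*, from 12 UMIs or fewer, so that both calls rested on barcodes that passed the *Lyz2* gate too. *Cfp*, which was not called, stayed above the T barcodes without them, at 29.4 and 39.5 against 10.6 and 6.5. In run 2, where PEP-WT had 48 barcodes, 6 were tested, with *Cfp* called higher and the C1q chains and both receptors lower, against 29.4% and 3.56% of 5597 genes. *Cfp* stood at 82.1 and 133, from 39 and 638 UMIs, and outside the *Lyz2* gate at 40.8 and 123, from 12 and 388, where the T barcodes had it at 20.2 and 38.9. Its log2 ratio in this gate, 0.70, ran from 0.11 to 1.53 under 7 alternative settings, so that the call did not hold under all of them. The interval of *C5ar1*, at 33.7 and 21.3, took in equality. Both receptors rested on barcodes that also passed the *Lyz2* gate, with 2 and 16 UMIs of *C3ar1* and 3 and 11 of *C5ar1* outside it. In the B gate of run 1, 7 members were tested, with *C5ar1* called higher at 4.10 and 7.53, and 0 lower, where 4.45% of 10882 genes were called higher and 2.98% lower. Outside the *Lyz2* gate the B gate had *C5ar1* at 0.967 and 1.94, from 30 and 35 UMIs, and the T barcodes at 0.909 and 0.882.

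Of 39 other genes of complement (components, regulators and receptors, a list chosen by function), 14 had 100 UMIs in the *Lyz2* gate of each run. These were not all the same genes. *Fcnb*, *Cr2* and *Clu* reached this number in run 1 only, and *C1ra*, *C2* and *Cd59a* in run 2 only. In run 1, 1 was called higher, 2 lower and 11 neither, where 2.73% and 3.88% of all genes were called, with a median log2 ratio of -0.15 beside -0.07 for all genes. The higher one was *Itgam*, at 161 and 253 CPM, which encodes the CD11b chain of complement receptor 3 and is also high in neutrophils. The 6 neutrophil markers summed in the *Lyz2* gate to 3907 and 7317 in run 1 and to 76.0 and 149 in run 2, and their part in *Itgam* was not tested. The lower ones were *Cr2*, the receptor for C3d that B cells and follicular dendritic cells carry, at 13.1 and 2.65, and *Clu*, an inhibitor of the terminal pathway, at 6.86 and 1.52. *Cr2* was also called lower in the B gate of run 1, at 137 and 38.7, and in its cDC gate, at 21.5 and 6.69. *Itgam* was also called higher in the neutrophil gate of run 1 (221 and 357) and its B gate (15.5 and 25.9), but not in its cDC gate. Neither was thus particular to the *Lyz2* gate. In run 2, 4 were called higher, 6 lower and 4 neither, where 22.4% and 14% of all genes were called, with a median of -0.15 beside 0.11.

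The lower genes of run 2 included further parts of the classical and lectin pathways. *C1ra*, a protease that acts with C1q, stood at 5.77 in PEP-WT and 2.42 in PEP-619WW, *C4b* at 21.1 and 6.13, and *C2* at 1.72 and 0.438. *C4b* has a near-identical copy, *C4a*, with which its reads could be confused. *Fcna*, which encodes ficolin A of the lectin pathway, stood at 23.9 and 2.48, and the regulator *Cd59a* at 5.38 and 0.525. *C1qbp*, a mitochondrial protein that binds C1q, stood at 158 and 103. Those called higher were *Itgam* (267 and 502), *Itgax* (41.5 and 63.4), which encodes the CD11c chain of complement receptor 4, the second C5a receptor *C5ar2* (8.90 and 17.0) and the regulator *Cd55* (1.72 and 4.14). *Itgam* was thus called higher in both runs. In run 1 *C4b* stood at 54.3 and 55.6 and *Fcna* at 9.62 and 8.49, neither of them called.

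**Figure D5:**
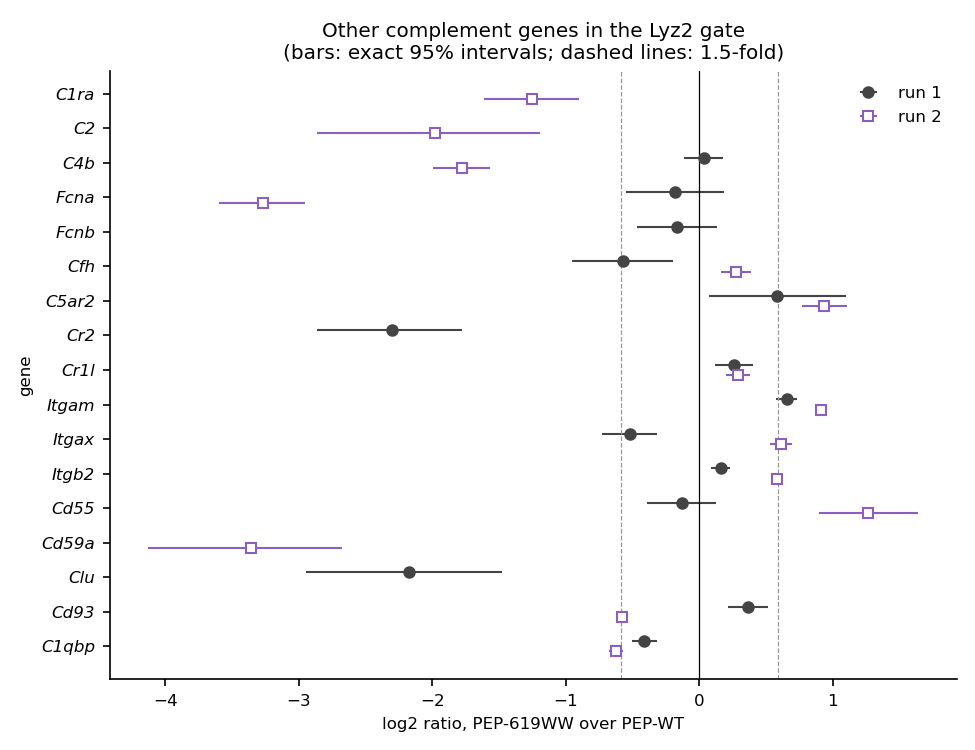
Log2 ratio of PEP-619WW over PEP-WT in the *Lyz2* gate for the other complement genes with at least 100 UMIs, in run 1 (filled circles) and run 2 (open squares), with exact 95% intervals and dashed lines at 1.5-fold. *Itgam* lies right of the upper line in both runs, and *C4b*, *C2*, *Fcna* and *Cd59a* lie far to the left in run 2.

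To see which genes had a pattern most like each member, log2(CPM + 1) was correlated over the 16 profiles of 4 gates, 2 genotypes and 2 runs among 9620 genes with at least 1000 UMIs. Profiles of a library share its depth and background, and a profile of 2 barcodes is among them, so these values are descriptions. Each C1q chain was most like the others (Pearson's r of 0.988 to 0.994), followed by *Sash1* for *C1qa* and *C1qb* (0.958 and 0.955) and *Slc48a1*, a heme transporter gene, for *C1qc* (0.955). *C3* was most like *Klra2* (0.986), *Cfp* like *Coro1c* (0.988), *C3ar1* like *Emp1* (0.98) and *C5ar1* like *Mafg* (0.969). *Cfb* had the weakest likeness, 0.854 with *Phf11d*.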

How the data were processed

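The authors aligned and counted 10x Genomics 3′ libraries with Cell Ranger on the mm10 mouse genome, version 6.0.0 by the submitters' processing notes (the study's methods name another version), and the deposited files hold raw UMI counts per gene and barcode, with 1 library per genotype and run. Of 32285 gene identifiers 32158 matched a current symbol. Mouse groups came from the genotype labels, and runs were kept apart. All barcodes were kept, without a filter on quality or doublets, and a barcode could pass more than 1 gate. UMIs were summed per gate and scaled to CPM. Levels carry exact Poisson, shares exact Clopper-Pearson and ratios exact conditional binomial 95% intervals, all for counting error only. UMIs of 1 pooled library are no replicates, so no test was made. Called genes differed at least 1.5-fold with at least 100 UMIs over both genotypes. Named genes were the 8 members, the 39 other complement genes (those with 100 UMIs in the *Lyz2* gate were open to naming), and the 3 genes most like each member. Members, lists and thresholds were chosen with earlier results of these data known. Depth was 2832 to 4837 UMIs per barcode at the median of a library. The ratio was tested on simulated data for the *Lyz2* gate of run 1 with 9924 genes, of which 200 were changed: the direction was right for 100% of these, and the intervals took in the simulated ratio for 95.4% of genes. The simulated counts were independent Poisson draws, for which these intervals are exact. This checks the calculation, not how well the intervals hold where UMIs lie in few barcodes. Alternatives were other gates, gate thresholds, filters, scalings and folds. Promoters came from RefSeq, which had entries for 6 members in the table used. Scripts ran on python 3.11.15 with scipy 1.17.1, numpy 2.4.6, matplotlib 3.10.9 and pandas 2.3.3.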

Additional observations from a re-analysis of the deposited data

Results flagged for a closer look

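Opposite directions in the runs were seen for 2 members that were called in both, although neither difference between the runs was tested and each run holds 1 library per genotype. In the *Lyz2* gate the log2 ratio of PEP-619WW over PEP-WT was 0.59 in run 1 and -1.76 in run 2 for *C1qc*. For *Cfb* it was -0.75 in run 1 and 0.98 in run 2 in the *Lyz2* gate, and -1.0 and 1.25 in the neutrophil gate. Of the *Cfb* UMIs of the neutrophil gate 797 of 808 and 378 of 401 in run 1 and 26 of 30 and 127 of 133 in run 2 lay in barcodes that also passed the *Lyz2* gate, and outside it both directions turned, with 14.96 and 23.3 CPM in run 1 and 5.64 and 3.69 in run 2 from 23 UMIs or fewer. The *Lyz2* gate of run 2 differed between the genotypes in *Vcam1* (35.0% and 2.48% of barcodes) and in *Ly6c2* (1.77% and 24.1%), and the part of this in the opposite directions was not tested.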

How the results depend on the processing

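The direction of summed C1q in the *Lyz2* gate held under the 9 alternatives of run 1 and the 10 of run 2. Barcodes at 4 UMIs of *Lyz2*, just outside the gate, went the other way in run 1, at 1590 CPM in PEP-WT and 349 in PEP-619WW. These 94 and 127 barcodes held 1120 and 208 UMIs of C1q, beside 17891 and 20531 in the gate. A threshold of 4 UMIs was not among the alternatives. The log2 ratio of 0.44 in run 1 was 0.74 with exclusive gates, 0.49 with doubled thresholds, 0.34 with gates on counts scaled to 5000 UMIs, 0.25 with the study's gate genes, 0.57 without barcodes of another lineage, 0.51 with median-of-ratios scaling, 0.29 as a mean over barcodes and 0.54 without *Vcam1*, *Folr2* or *Mrc1* barcodes. The ratio of -1.62 in run 2 was -1.53, -1.59, -1.58, -1.64, -1.57 and -1.74 under the first 6 of these in the same order, and -2.07 without those macrophage barcodes, a setting chosen after seeing the data, as was leaving out melanocyte-gene barcodes (-1.63). *Cfb* in the neutrophil gate reversed with exclusive gates in both runs, to 1.03 from 8 and 21 UMIs in run 1 and to -0.82 from 4 and 5 UMIs in run 2, since these gates leave few of its UMIs. *C1qc* in the *Lyz2* gate of run 1 was no longer called with scaled gates (0.49), the study's gate genes (0.40) or the mean over barcodes (0.43), and *C5ar1* with the study's gate genes (0.52). Summed C1q of run 1 did not keep its direction in the other gates. Its log2 ratio ran from -0.42 to 0.37 in the neutrophil gate, -0.52 to 1.26 in the cDC gate and -0.55 to 0.65 in the B gate.

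The number of members called in the *Lyz2* gate of run 1, 4, became 6 with exclusive gates (*C1qa* at 0.69 and *C1qb* at 0.67 were added), 3 with scaled gates, 2 with the study's gate genes and 1 at 2-fold. In the neutrophil gate of run 1 the number 1 became 0 with exclusive gates and 2 with the study's gate genes, without barcodes of another lineage or with a floor of 20 UMIs. In the cDC gate of run 1 the number 2 became 0 with exclusive gates, 1 with doubled thresholds or at 2-fold and 5 without barcodes of another lineage. In the B gate of run 1 the number 1 became 3 with exclusive gates, 2 with doubled thresholds or a floor of 20 UMIs, 0 without barcodes of another lineage or at 2-fold, and 4 as a mean over barcodes. In run 2 the number 5 in the neutrophil gate became 2 with the study's gate genes, and the number 6 in the cDC gate became 1 with exclusive gates and 3 with doubled thresholds or at 2-fold. Where no cause is named it was not tested. Of 50 values of the 5 called members in the *Lyz2* gate of run 2, 50 stayed past 1.5-fold, and of 36 values of the 4 called members in run 1, 32 did. Thinning to 1000 UMIs lowered the 32 detection shares of the *Lyz2* gate, as fewer UMIs must. The B gate of run 2 and a cDC gate with the study's genes gave no value. No paired analysis was possible because each run has 1 library per genotype and no ratio comes from a test.

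Precision was limited by 1 pooled library per genotype and run, by the 33 T barcodes outside the *Lyz2* gate that set the background of PEP-WT in run 2, and by the few UMIs of *C3ar1* in run 1. The share of free RNA was not estimated, and doublets were not removed.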

Other observations

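In *Lyz2* gate barcodes outside the neutrophil gate, both receptors were higher in the barcodes with more C1q in each library. So were *Cfb*, as given above, and *Cfp*, so that this order was not particular to the receptors. *C3ar1* stood at 11.5 CPM in the 50% of PEP-WT barcodes ranked higher by C1q and 1.66 in the 50% ranked lower, and at 35.7 and 5.01 in PEP-619WW. *C5ar1* stood at 19.2 and 7.66 in PEP-WT and at 39.4 and 13.4 in PEP-619WW. In run 2 the same split gave 343 and 313 for *C3ar1* in PEP-WT and 379 and 243 in PEP-619WW, and 225 and 182 and 233 and 177 for *C5ar1*. *Cfp* stood at 104 and 53.8 in PEP-WT and at 122 and 33.9 in PEP-619WW in run 1. In run 2 it stood at 232 and 209 and at 266 and 217. *Spic*, the factor of red pulp macrophages, stood at 78.9 and 12.01 in PEP-WT and at 82.8 and 8.19 in PEP-619WW in run 1, and at 4.72 and 2.57 and at 4.01 and 6.94 in run 2. *Spic* was thus higher in barcodes with more C1q in both libraries of run 1 and in PEP-WT of run 2, but not in PEP-619WW of run 2. These values describe cells of the same libraries.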
